A study of Homo sapiens with 6 samples.

Results

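The genes described here are 57 nucleolar ribosome biogenesis genes, taken from a table of 36884 genes by their gene symbols. They comprise 6 subunits of RNA polymerase I, 9 proteins of small nucleolar ribonucleoprotein particles (snoRNPs) and their assembly, 20 factors of the small subunit processome and of 40S maturation, 19 assembly factors of the 60S subunit, and 3 abundant or regulatory nucleolar proteins. Of the 57, 56 had enough counts to be tested. The remaining gene, BOP1 (ENSG00000261236), a 60S assembly factor, was listed at 0 in all 6 libraries. A floor of 3 counts, used here for a count of 0, would be 0.106 to 0.11 CPM (counts scaled to a library of a common size) per library. It sets no firm upper bound on the level of BOP1. Why BOP1 was at 0 was not tested, and it has no further values below.

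RNA was sequenced from RPE1, an immortalized and non-transformed epithelial line that derives from human retinal pigment epithelium. In all cells, controls included, LATS1 and LATS2, the kinases that restrain the coactivators YAP and TAZ in the Hippo pathway, had been inactivated with CRISPR-Cas9. The labels do not say whether the edited line is 1 clone, and unedited RPE1 cells were not compared. One group received control siRNA (siCon) and the other siRNA against MK5 (siMK5), a protein kinase encoded by MAPKAPK5, by lipid transfection for 48 h, with 3 libraries in each group. The comparison asks which transcripts respond to lower MK5 in this LATS-deficient background. Fold changes are siMK5 over siCon in log2, given with the fit's standard error, and levels are CPM scaled by TMM, an edgeR method that corrects library totals for differences in composition. A gene rose or fell where edgeR's quasi-likelihood test, with Benjamini-Hochberg adjustment over 13431 genes, gave an adjusted p below 0.05.

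Ribosomes are built mainly in the nucleolus. RNA polymerase I transcribes a long precursor of the ribosomal RNAs. Box C/D and box H/ACA snoRNPs methylate and pseudouridylate this precursor, and the small subunit processome and a succession of 60S assembly particles fold it, cleave it and load it with ribosomal proteins. Many of the genes carry in their promoters the E-box CACGTG, a word bound by MYC and related factors, and the pathway is known as one that follows cell growth.

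The siRNA's target was lower in the libraries labelled siMK5, and the libraries of both groups were of like depth. MAPKAPK5 (ENSG00000089022) was at 35.6, 29.05 and 31.3 CPM in siCon replicates 1 to 3 and at 17.4, 14.1 and 16.2 CPM in siMK5 replicates 1 to 3, which is −1.01 ± 0.14 in log2 (edgeR adjusted p = 0.00169). Library totals lay between 27188074 and 28236773 counts. Replicate 1 of each group differed from the other two libraries, most of all in siCon, where the second principal component, 21.2% of the variance, set it apart from the rest. Among the 56 ribosome biogenesis genes, siCon replicate 1 was above the mean of siCon replicates 2 and 3 in 37, with a median difference of 0.136 (log2). The median absolute difference was 0.221, against 0.093 between replicates 2 and 3. In siMK5, replicate 1 was above the mean of the others in 17 of 56, with a median difference of −0.073. There the median absolute difference was 0.133, against 0.098 between replicates 2 and 3. Of all 13431 genes tested, replicate 1 was above in 6668 in siCon and in 6830 in siMK5. The median absolute differences over all genes tested were 0.374 and 0.179. Of 9 markers of retinal pigment epithelium, MITF, OTX2 and PMEL reached 1 CPM, RPE65, RLBP1 and TYR had at most 2 counts in any library and TTR had none. The summed level of these 9 markers was 82.5 to 93.9 CPM in siCon and 61.5 to 66.1 CPM in siMK5, and that of 4 simple epithelial keratins 708 to 832 and 420.2 to 588.6 CPM. Single markers went either way, MITF being at 48.5 to 57.7 CPM in siCon and 23.6 to 29.03 CPM in siMK5, and OTX2 at 29.2 to 32.4 and 35.8 to 36.4 CPM. The part of these differences in the results below was not tested. Of 8 markers of leukocytes, endothelium, other epithelia and muscle, the highest count in any library was 30, PECAM1 and EPCAM were at 0, and their summed level was 0.614 to 1.05 CPM in siCon and 0.8 to 1.31 CPM in siMK5. In bulk RNA, fewer cells of a kind and less RNA per cell cannot be told apart.

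Transcripts of the pathway were mostly lower with MK5 siRNA. Of the 56 tested genes, 30 fell and 3 rose, while over all genes tested 23.7% fell and 22.5% rose, 46.2% together. The falls ranged from NOC3L, at −1.61, to NPM1, at −0.35 (log2), with edgeR adjusted p from 0.000414 to 0.0466. The 3 rises were in RRP12, GNL2 and IMP4. In 37 genes every siMK5 library lay below every siCon library, and in 4 every siMK5 library lay above, while over all genes tested 29.8% and 30.6% were apart in these directions, 60.4% together. The median log2 fold change was −0.44 over the 56 and 0.0003 over all genes tested, and 45 of the 56 estimates were below 0. Within replicate pairs 1, 2 and 3 the median change was −0.54, −0.41 and −0.35 on log2(CPM + 0.5), with 43 genes lower and 7 higher in all 3 pairs. Over all 13431 genes tested, 4857 were lower and 5021 higher in all 3 pairs. Without siMK5 replicate 2, 18 of the 56 fell and 2 rose, while over all genes tested the share that fell was then 15.4%. Without replicate 1 in both groups, 40 fell and 8 rose, beside 37.8% and 37.9% of all genes tested.

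**Figure D1:**
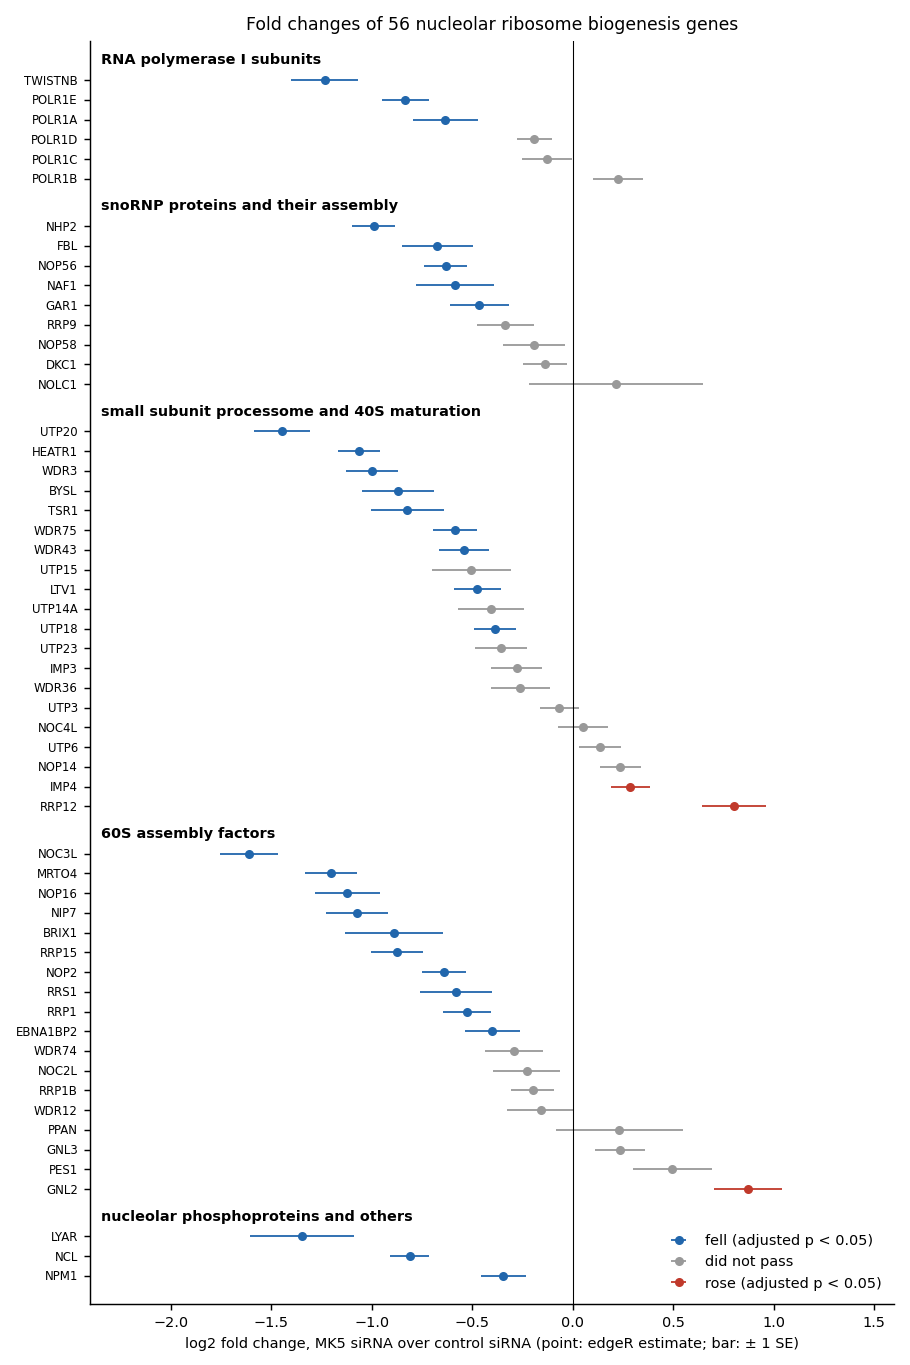
Log2 fold change of siMK5 over siCon (x axis) for each of the 56 tested genes (y axis), grouped by role and sorted within each role. Points are edgeR estimates and bars are ± 1 SE, in blue for the 30 that fell, red for the 3 that rose and grey for the 23 that did not pass, and most points lie left of 0 in every role.

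Most changes were moderate. Of the 56 genes, 9 fell at least 2-fold (NOC3L, UTP20, LYAR, TWISTNB, MRTO4, NOP16, NIP7, HEATR1 and WDR3), and 11.5% of all genes tested fell by that much. Counted among falls alone, these are 9 of 30, against 1543 of 3186 over all genes tested. None of the 56 rose 2-fold, while 10.8% of all genes tested did. The 23 genes that did not pass had log2 fold changes between −0.51 and 0.49 and edgeR adjusted p between 0.0577 and 0.753. In 7 of these 23 all siMK5 libraries lay below all siCon libraries. The 29.8% of all genes tested that lay apart this way includes genes that fell, so the 2 shares are not alike. The summed level of the 56 genes was 6837, 6377 and 6581 CPM in siCon and 4851, 5039 and 5365 CPM in siMK5. These sums did not overlap, and their means were 6598 ± 231 and 5085 ± 260 CPM (SD, n = 3), a log2 ratio of −0.38. NPM1 and NCL hold a large share of that sum: without them the sums were 3601 ± 117 and 2971 ± 126 CPM, a log2 ratio of −0.28.

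**Figure D2:**
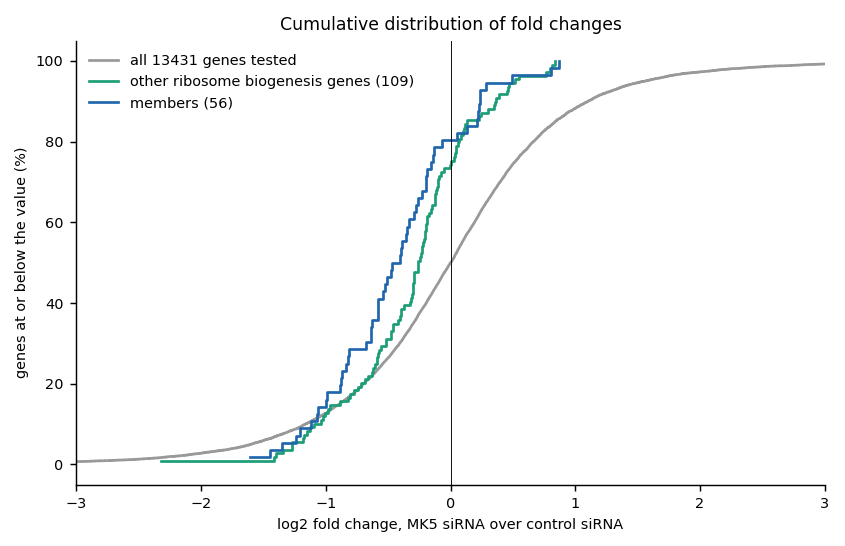
Cumulative share of genes (y axis, %) at or below each log2 fold change of siMK5 over siCon (x axis), for the 56 ribosome biogenesis genes, 109 other genes of the pathway and all 13431 genes tested. The curve of the 56 genes crosses its middle at −0.44, that of the 109 at −0.26 and that of all genes at 0.0003, while beyond −1 and +1 all genes tested spread further than the 56.

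RefSeq promoter windows (GRCh38.p14, from 250 bases before the transcription start to 50 after it) were found for 48 of the 57 genes. The E-box CACGTG, which reads the same on both strands, was in 16 of the 48 windows (33.3%), against 10.0% of 10661 windows of tested genes and 7.4% of all 27305 windows. In 14 of the 48 (29.17%) the E-box lay between 10 bases before and 40 bases after the start, a stretch chosen after its positions were seen, against 1.63% of windows of tested genes and 1.2% of all windows. The following stretches show it in genes that fell and in genes that rose, with the E-box in capitals and 10 bases on either side, read 5′ to 3′ along the gene. NOC3L, UTP20, MRTO4 and FBL fell, and GNL2 and IMP4 rose. The stretches lie at chr10:94362905-94362930 (minus strand), chr12:101280085-101280110 (plus), chr1:19251809-19251834 (plus), chr19:39846358-39846383 (minus), chr1:37595919-37595944 (minus) and chr2:130342902-130342927 (plus), in that order.
NOC3L: gggacttcggCACGTGtgtcattccc
UTP20: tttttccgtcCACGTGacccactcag
MRTO4: tcttccgccgCACGTGgattcagcgc
FBL: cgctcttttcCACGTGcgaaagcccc
GNL2: acgtcgtgcaCACGTGgtccggcgtg
IMP4: ctcccggaccCACGTGgaagcggcac

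The E-box stood in promoters of genes with different changes. It was in 10 of the 27 matched promoters of genes that fell, in both matched promoters of genes that rose and in 4 of the 19 of genes that did not pass. Its first base lay 19 bases after the start in NOC3L, 10 before it in UTP20, 14 after it in MRTO4, 6 after it in FBL, 3 after it in GNL2 and 15 after it in IMP4, which holds 2 in its window. The word CCGGAAG, the core of many ETS factor sites, was on either strand of 18 of 48 windows (37.5%), against 19.0% of windows of tested genes. By call it was in 11 of 27 that fell, 7 of 19 that did not pass and 0 of 2 that rose. The NRF1 word, which is GCGC, any base, then TGCGC on either strand, was in 10 of 48 (20.8%), against 11.8% of windows of tested genes. By call it was in 9 of 27 that fell, 1 of 19 that did not pass and 0 of 2 that rose. None of these splits by call was tested. A word in a window is a description of the sequence and not evidence of binding.

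Among the subunits of RNA polymerase I, 3 of 6 fell and none rose, while 23.7% of all genes tested fell and 22.5% rose. POLR1A (ENSG00000068654), the largest catalytic subunit, was at 75.7, 99.0 and 106 CPM in siCon and at 51.8, 62.0 and 66.9 CPM in siMK5. All siMK5 libraries lay below all siCon libraries, and replicate 1 was the lowest in each group. The log2 fold change was −0.63 ± 0.16 (edgeR adjusted p = 0.0179), which did not pass without siMK5 replicate 1 (−0.53, adjusted p = 0.0608) or without siMK5 replicate 2 (−0.65, adjusted p = 0.0614). POLR1E (ENSG00000137054), which joins the polymerase's subcomplex related to TFIIF, was at 57.0, 46.9 and 47.6 CPM in siCon and at 28.9, 28.1 and 27.9 CPM in siMK5. The 3 siMK5 values were nearly equal and well below the controls, a difference of −0.83 ± 0.12 in log2 (edgeR adjusted p = 0.00179). TWISTNB (ENSG00000105849), the stalk subunit also called POLR1F, was at 72.9, 52.4 and 51.4 CPM in siCon and at 23.6, 27.1 and 24.4 CPM in siMK5. It was 2.35-fold lower with MK5 siRNA, the largest fall among the 6 subunits (−1.24 ± 0.17, edgeR adjusted p = 0.00152), and siCon replicate 1 was the highest library.

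The second large subunit of the catalytic core and the subunits shared with RNA polymerase III did not pass. POLR1B (ENSG00000125630), the other large catalytic subunit, was at 38.8, 41.8 and 42.1 CPM in siCon and at 41.6, 48.0 and 53.7 CPM in siMK5. siMK5 replicate 1 lay among the controls, and the log2 fold change was 0.22 ± 0.12 (edgeR adjusted p = 0.183). Without replicate 1 in both groups POLR1B passed with an estimate of 0.28 (edgeR adjusted p = 0.00188). In that smaller fit 75.8% of all genes tested passed. POLR1C (ENSG00000171453) and POLR1D (ENSG00000186184), which form the platform on which both RNA polymerase I and III assemble, had log2 fold changes of −0.13 and −0.19 (edgeR adjusted p = 0.421 and 0.117). POLR1C ranged from 30.0 to 35.6 CPM in siCon and from 27.8 to 32.5 CPM in siMK5, which overlap. POLR1D was at 96.8 to 102 CPM in siCon and at 86.8 to 88.8 CPM in siMK5, all siMK5 libraries below all controls. The difference between any of these subunits' fold changes was not tested.

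The snoRNP proteins had 5 falls and no rise among 9 genes, and this count varied with the libraries kept. It was 2 falls without siMK5 replicate 2 or siMK5 replicate 3, and 3 without siMK5 replicate 1 or siCon replicate 2. It was 4 without siCon replicate 3, 6 without siCon replicate 1 and 7 without replicate 1 in both groups. With single libraries left out, the class median stayed between −0.55 and −0.35 (log2). The share of all genes tested that fell moved from 23.7% to between 15.4% and 32.1% in those fits. FBL (ENSG00000105202), the methyltransferase fibrillarin of box C/D particles, was at 224, 150.1 and 155 CPM in siCon and at 120.1, 103 and 108 CPM in siMK5. All siMK5 libraries were below all controls, and siCon replicate 1 was far above the other controls. The log2 fold change was −0.67 ± 0.17 (edgeR adjusted p = 0.0184), and −0.46 without siCon replicate 1 (adjusted p = 0.00166). FBL did not pass without siMK5 replicate 2 (−0.62, adjusted p = 0.0777) or without siMK5 replicate 3 (−0.65, adjusted p = 0.0709). NOP56 (ENSG00000101361), a scaffold of the same particles, was at 155, 137 and 153 CPM in siCon and at 89.8, 93.9 and 103 CPM in siMK5, also apart, with −0.63 ± 0.11 (edgeR adjusted p = 0.00345). NHP2 (ENSG00000145912), a core protein of box H/ACA particles, was at 49.8, 49.6 and 52.2 CPM in siCon and at 26.7, 23.4 and 26.1 CPM in siMK5. Its replicates were tight in both groups and the fall was 1.99-fold (−0.99 ± 0.11, edgeR adjusted p = 0.000702). GAR1, another H/ACA core protein, and NAF1, its assembly counterpart, fell by 0.47 and 0.58 (log2). The call was lost in 8 of 15 other settings for GAR1, the replicate block among them (edgeR adjusted p = 0.0726), and in 7 of 15 for NAF1. The H/ACA pseudouridine synthase DKC1, the C/D proteins NOP58 and RRP9, and NOLC1 did not pass.

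NOLC1 (ENSG00000166197), the nucleolar chaperone of snoRNPs also called Nopp140, had the largest departure of a single library. It was at 89.2, 313 and 327 CPM in siCon and at 289, 274 and 282 CPM in siMK5. siCon replicate 1 alone was low, and the other 5 libraries lay between 274 and 327 CPM. The log2 fold change was 0.21 ± 0.43 (edgeR adjusted p = 0.711). It was −0.18 without siCon replicate 1 (adjusted p = 0.0477) and −0.20 without replicate 1 in both groups (adjusted p = 0.00368), so direction and call turned on that library. Its difference from the mean of siCon replicates 2 and 3, −1.84 (log2), was the farthest among the 56 genes.

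Small subunit processome and 40S factors numbered 20, of which 9 fell and 2 rose (6 and 1 without siMK5 replicate 2, 13 and 4 without replicate 1 in both groups). Of all genes tested 23.7% fell and 22.5% rose. The share that fell was 15.4% without siMK5 replicate 2 and 37.8% without replicate 1 in both groups. UTP20 (ENSG00000120800), a large processome scaffold, was at 64.7, 60.3 and 65.2 CPM in siCon and at 19.8, 22.9 and 27.03 CPM in siMK5. The groups were far apart, and the fall was 2.73-fold (−1.45 ± 0.14, edgeR adjusted p = 0.000495). HEATR1 (ENSG00000119285), the human UTP10, was at 80.2, 73.5 and 69.9 CPM in siCon and at 34.4, 35.9 and 36.7 CPM in siMK5. It belongs to the UTP-A complex, which also promotes transcription by RNA polymerase I, and it fell 2.09-fold (−1.06 ± 0.10, edgeR adjusted p = 0.000502). WDR3 (ENSG00000065183), the human UTP12 of the UTP-B complex, was at 89.3, 72.4 and 71.5 CPM in siCon and at 35.9, 39.4 and 41.2 CPM in siMK5. The groups were apart by a wide gap, and the log2 fold change was −1.0003 ± 0.13 (edgeR adjusted p = 0.00131). The other 6 falls, in BYSL, TSR1, WDR75, WDR43, LTV1 and UTP18, were between −0.87 and −0.39 (log2).

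Both rises in the processome class were in factors outside UTP-A and UTP-B. RRP12 (ENSG00000052749), a HEAT-repeat protein of pre-40S maturation and export, was at 59.1, 69.2 and 82.8 CPM in siCon and at 109, 119.7 and 139.9 CPM in siMK5. All siMK5 libraries were above all controls, by 0.88, 0.79 and 0.75 in pairs 1, 2 and 3 on log2(CPM + 0.5), and the log2 fold change was 0.80 ± 0.16 (edgeR adjusted p = 0.00658). IMP4 (ENSG00000136718), a protein of the MPP10 complex, was at 67.7, 61.6 and 66.9 CPM in siCon and at 78.0, 77.7 and 83.5 CPM in siMK5. The groups were apart by a small gap, with 0.29 ± 0.10 (edgeR adjusted p = 0.0466), and the call was lost in 8 of 15 other settings, every one of which kept its direction. Exons of IMP4 overlap those of CCDC115 on the opposite strand, which fell by 1.43 (log2), and without a stated strand setting reads of the overlap cannot be told apart. Its partner IMP3 had −0.28 (edgeR adjusted p = 0.114).

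**Figure D3:**
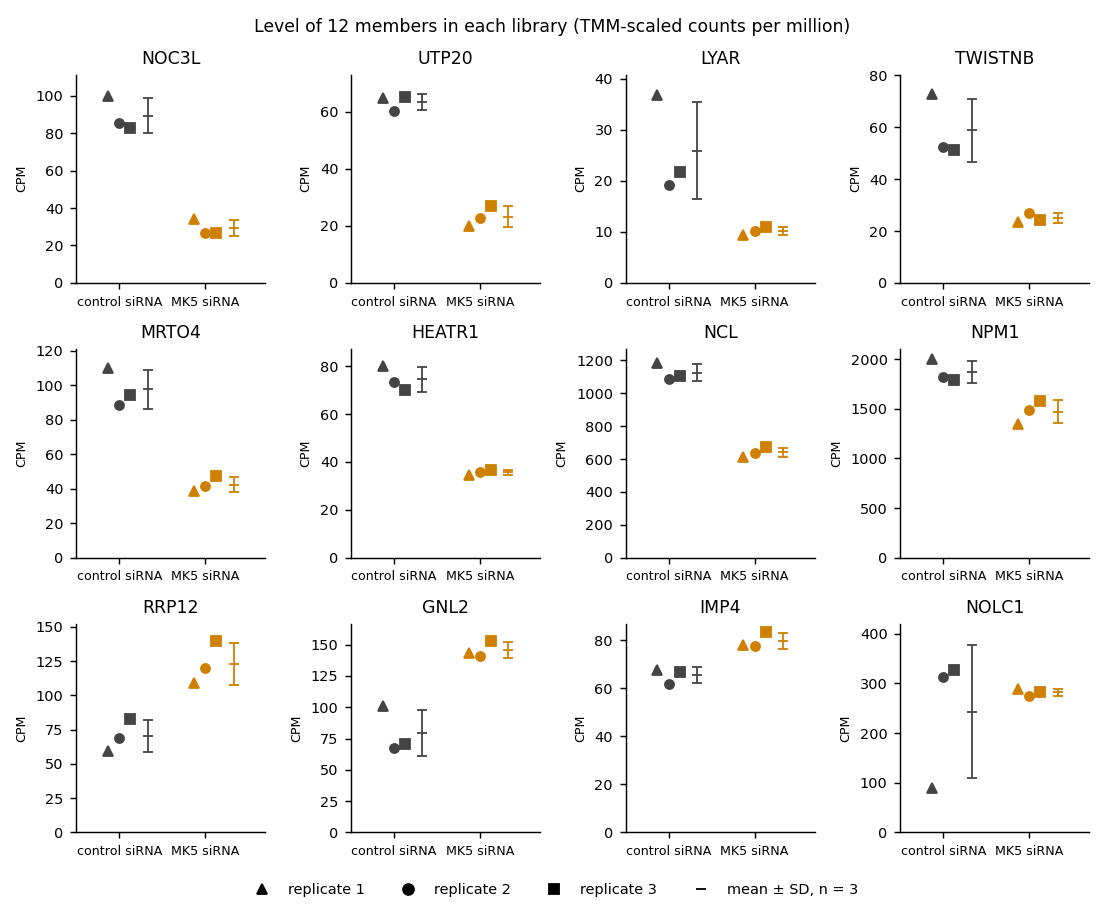
Level of 12 of the genes in each library (y axis, TMM-scaled CPM from 0), with siCon in grey and siMK5 in orange. Symbols mark replicates 1 to 3, bars show mean ± SD (n = 3), and siMK5 lies below siCon in every library for the upper 8 genes and above it for RRP12, GNL2 and IMP4, while NOLC1 has a single low siCon library.

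The 60S assembly factors had 10 falls and 1 rise among 18 tested genes, with 6 falls and 1 rise without siMK5 replicate 2. Of all genes tested 23.7% fell and 22.5% rose, and 15.4% fell without siMK5 replicate 2. NOC3L (ENSG00000173145), a partner of NOC2L in nucleolar 60S particles, was at 100.1, 85.2 and 83.0 CPM in siCon and at 34.2, 26.9 and 26.9 CPM in siMK5. Its fall, 3.05-fold, was the largest of the 56 genes (−1.61 ± 0.14, edgeR adjusted p = 0.000414), and it was −1.54, −1.65 and −1.61 in the 3 replicate pairs. MRTO4 (ENSG00000053372), a placeholder for the ribosomal stalk proteins, was at 110.0, 88.4 and 94.3 CPM in siCon and at 38.7, 41.3 and 47.1 CPM in siMK5. The groups were far apart, with −1.20 ± 0.13 (edgeR adjusted p = 0.000757), while EMC1, whose exons overlap its own on the opposite strand, rose by 0.50 (log2). NOP16 (ENSG00000048162), another 60S factor, was at 18.8, 18.1 and 22.4 CPM in siCon and at 7.74, 9.49 and 10.0 CPM in siMK5, with −1.12 ± 0.16 (edgeR adjusted p = 0.00204). The other 7 falls were in NIP7, BRIX1, RRP15, NOP2, RRS1, RRP1 and EBNA1BP2, from −1.07 to −0.40 (log2). The calls of EBNA1BP2, RRS1 and BRIX1 were lost in 8, 5 and 4 of 15 other settings.

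Of the nucleolar GTPases among the 60S factors, GNL2 rose and GNL3 did not pass. GNL2 (ENSG00000134697), which acts in late nucleolar 60S maturation and export, was at 101, 67.2 and 70.5 CPM in siCon and at 143, 140.6 and 153 CPM in siMK5. All siMK5 libraries were above all controls, siCon replicate 1 being the closest to them. The rise was 1.83-fold (0.87 ± 0.17, edgeR adjusted p = 0.00609) and stood at 1.095 without replicate 1 in both groups. GNL3 (ENSG00000163938), nucleostemin, was at 151, 118 and 125 CPM in siCon and at 164, 145 and 155 CPM in siMK5, and the groups overlapped only through siCon replicate 1. The estimate was 0.23 ± 0.13 (edgeR adjusted p = 0.166), and 0.35 without that library (adjusted p = 0.00506). Exons of GNL3 overlap those of GLT8D1 on the opposite strand, which rose by 1.09 (log2), and the part of this overlap in the estimate was not tested. PES1 and WDR12, the tested proteins of the PeBoW complex with BOP1, had 0.49 and −0.16 (edgeR adjusted p = 0.0763 and 0.464). With the replicate block PES1 passed, at 0.51 (adjusted p = 0.0160), being higher by 0.64, 0.48 and 0.40 in the 3 pairs on log2(CPM + 0.5).

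All 3 of the remaining nucleolar proteins fell, while 23.7% of all genes tested did. NCL (ENSG00000115053), nucleolin, was at 1182, 1089.5 and 1106 CPM in siCon and at 614, 639 and 670.5 CPM in siMK5. The groups were far apart, with little spread within each, and the log2 fold change was −0.81 ± 0.10 (edgeR adjusted p = 0.00104). NPM1 (ENSG00000181163), nucleophosmin, was at 2003, 1821 and 1791 CPM in siCon and at 1352, 1488 and 1578 CPM in siMK5. The gap between the groups was small, the log2 fold change was −0.35 ± 0.11 (edgeR adjusted p = 0.0390), and the call was lost in 8 of 15 other settings, the replicate block among them (adjusted p = 0.0562). LYAR (ENSG00000145220), a zinc finger protein that acts in processing of the ribosomal RNA precursor and in ribosomal DNA transcription, was at 36.7, 19.1 and 21.8 CPM in siCon and at 9.45, 10.1 and 10.9 CPM in siMK5. It fell 2.55-fold (−1.35 ± 0.26, edgeR adjusted p = 0.00578), and by 1.00 (log2) without siCon replicate 1, its highest library. Per kilobase of exon, NPM1 had the highest level in siCon, at 489 CPM per kb, followed by NCL at 163 CPM per kb. FBL and NOLC1 came next, at 81.0 and 61.2 CPM per kb in siCon, an order set by siCon replicate 1, since NOLC1 was the higher of these in siCon replicates 2 and 3 (78.9 and 82.4 against 69.1 and 71.2 CPM per kb) and in siMK5 (71.0 against 50.8 CPM per kb). PPAN was lowest, at 0.797 CPM per kb in siCon, and its exons overlap those of P2RY11 on the same strand.

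**Figure D4:**
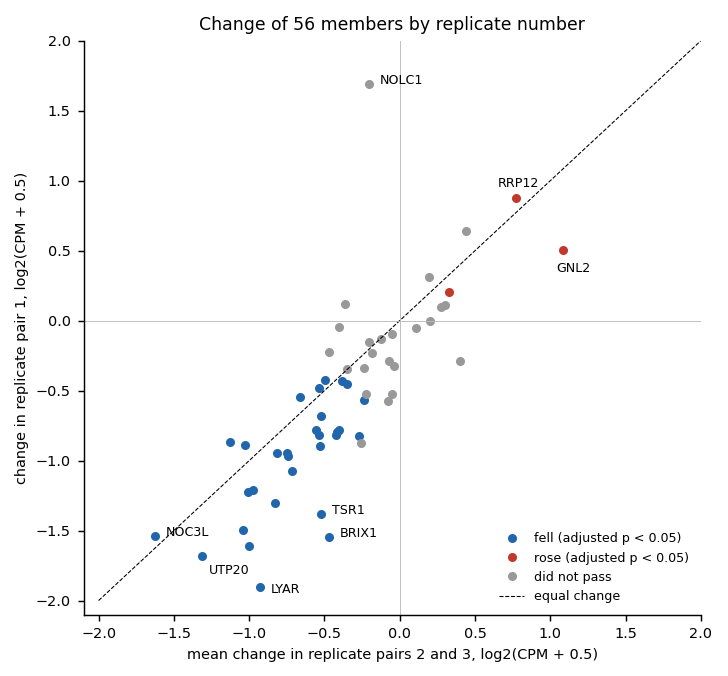
Change of each of the 56 genes in replicate pair 1 (y axis) against the mean change in pairs 2 and 3 (x axis), both as log2(CPM + 0.5) of siMK5 minus siCon, with colours as for the calls and a dashed line of equal change. Most genes that fell lie in the lower left, often below the line, LYAR, BRIX1 and TSR1 are lower in pair 1 than in the others, and NOLC1 is high in pair 1 alone.

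The calls were also counted by complex, with assignments made from general knowledge after the values were known. Of all genes tested 23.7% fell and 22.5% rose. The complexes are small, and none was tested against those shares. Of the 6 UTP-A proteins (UTP4, UTP15, WDR43, HEATR1, WDR75 and NOL11, of which UTP4 and NOL11 are outside the 57), 5 fell, and UTP15 had −0.51 (edgeR adjusted p = 0.0731). Of the 6 UTP-B proteins 4 fell and none rose. Of the 4 proteins of the MPP10 complex none fell and 2 rose, IMP4 and MPHOSPH10 (0.81, edgeR adjusted p = 0.00371). Box C/D and box H/ACA cores each had 2 falls among 4 proteins. Of the 6 subunits found only in RNA polymerase I 4 fell, of the 2 shared with RNA polymerase III none passed, and of the 5 shared by all 3 nuclear polymerases 1 fell. No difference between complexes was tested.

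Pathway genes outside the 57 had a median below 0 as well. Of 112 other ribosome biogenesis genes 109 were tested, and 36 fell and 9 rose (33.0% and 8.26%), with a median of −0.26 (log2). Among 15 initiation factors and further subunits of RNA polymerase I, 3 fell, a share below the 23.7% of all genes tested. CD3EAP, the polymerase's PAF49 subunit, was at 6.67, 8.55 and 9.07 CPM in siCon and at 1.28, 1.84 and 1.72 CPM in siMK5. All siMK5 libraries lay far below the controls, a 5.01-fold fall (−2.32 ± 0.23, edgeR adjusted p = 0.000574) and the largest among the 109. POLR2L, a small subunit of all 3 polymerases, fell by 1.13 and TAF1B of the promoter factor SL1 by 0.82 (log2). UBTF, the architectural factor of ribosomal DNA, was at 87.9, 160.1 and 168 CPM in siCon and at 88.6, 106 and 107 CPM in siMK5. Replicate 1 of both groups was alike and the other libraries were apart. UBTF had −0.46 ± 0.24 (edgeR adjusted p = 0.161), and −0.70 without siCon replicate 1 (adjusted p = 0.000481). RRN3, the initiation factor that links polymerase and promoter, had −0.19 (edgeR adjusted p = 0.155).

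Over all genes tested 23.7% fell and 22.5% rose, to be set beside the shares that follow. Of 33 further small subunit factors 13 fell and 5 rose (39.4% and 15.2%). PDCD11, the human RRP5, fell by 1.27 and EMG1, a ribosomal RNA methyltransferase, by 1.15 (log2). Of 39 further 60S factors 12 fell and 3 rose (30.8% and 7.69%), with MAK16 at −1.41, the SUMO protease SENP3 at −1.27 and the export adaptor NMD3 at 0.83. Of 14 exosome genes, which trim ribosomal RNA precursors, 5 fell and 1 rose (35.7% and 7.14%), with EXOSC2 at −1.40 and EXOSC9 at −1.18. Of 8 further snoRNP genes 3 fell (37.5%), with RUVBL1, an ATPase that assembles snoRNPs, at −1.34 (edgeR adjusted p = 0.000276) and ZNHIT6 at −0.80 (edgeR adjusted p = 0.0173). For comparison, 31 of 83 cytosolic ribosomal protein genes fell (37.3%) and none rose, with a median of −0.34. Of 75 mitochondrial ribosomal protein genes 20 fell and 3 rose (26.7% and 4.0%), with a median of −0.13, and the share that fell was near that of all genes tested.

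**Figure D5:**
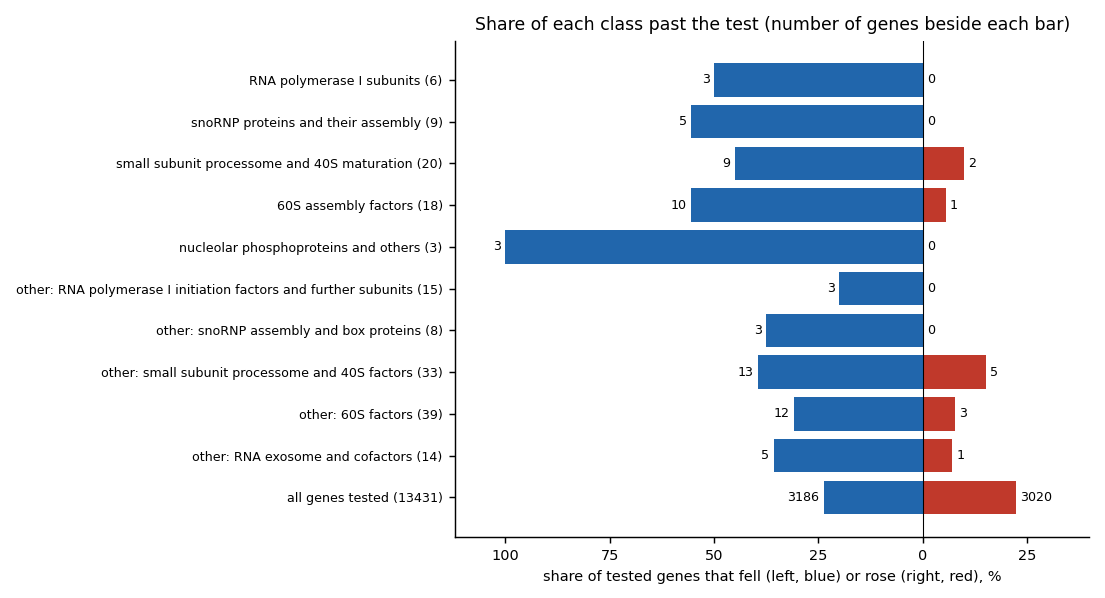
Share of the tested genes of each class (x axis, %) that fell, drawn left of 0 in blue, or rose, drawn right in red, with the number of genes beside each bar and the class size in brackets on the y axis. Falls outnumber rises in each class of the 57 and of the other pathway genes, while over all 13431 genes tested 3186 fell and 3020 rose.

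Several of the genes hold small nucleolar RNA genes or near copies of themselves. In GENCODE 29, 9 of the 56 tested genes hold 28 snoRNA genes (16.07% of the 56, against 1.79% of 12434 tested protein-coding genes). These hosts are POLR1C, NOP56, NOP58, DKC1, WDR43, TSR1, GNL3, PPAN and NCL, with GNL3 holding 6 and NOP56 holding 5. Of the 9 hosts 4 fell and none rose, with a median of −0.19, and of the 47 others 26 fell and 3 rose, with a median of −0.47. Of 214 other tested protein-coding hosts 63 fell and 34 rose, with a median of −0.166, near that of the 9. Of all genes tested 23.7% fell and 22.5% rose. Exons of 25 of the 57 genes overlap exons on the opposite strand, and for these the assignment of reads is uncertain. Among the 25 are all 3 genes that rose, RRP12, GNL2 and IMP4. NHP2, HEATR1, WDR3, NOP16 and MRTO4, which fell, are among them too. Exons of 12 of the 57 overlap exons on the same strand, those of PPAN included. UTP14A, a processome protein, has a retrocopy, UTP14C, so reads could be split between them. UTP14A was at 27.1, 37.0 and 38.3 CPM in siCon and at 23.2, 26.5 and 27.7 CPM in siMK5, which overlap in siCon replicate 1 (−0.41, edgeR adjusted p = 0.0811, and −0.39 with 0.0430 under the replicate block). UTP14C was at 26.5, 26.2 and 26.3 CPM in siCon and at 44.0, 44.2 and 44.1 CPM in siMK5. It rose in all libraries by nearly the same amount, 0.74 ± 0.09 (edgeR adjusted p = 0.00128). PPAN, a 60S factor whose transcripts read through into P2RY11, had 0.23 ± 0.32 (edgeR adjusted p = 0.575) at 1.57 to 2.92 CPM, while P2RY11 rose by 1.00 (log2, edgeR adjusted p = 0.00816). Exons of PPAN overlap those of P2RY11 and of the read-through gene PPAN-P2RY11, which was at 0 in all libraries. The part of this overlap in the level of PPAN was not tested. The 45 pseudogene entries of NPM1 held 151 counts in all, 0.054% of the counts of NPM1.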

How the data were processed

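The deposited table, made by the authors, holds whole-number counts per gene for 6 libraries, although its name speaks of CPM. Per the submitters' processing notes, reads were handled with TopHat2 2.1.1, HTSeq 0.9.1, Trimmomatic 0.36 and FastQC, on build GRCh37. Strand setting and annotation: not given in the sources used here. The design allowed for counts or CPM, and the count test was used.

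Counts were tested in R 4.3.3 with edgeR 4.0.16 (filterByExpr, least count 10 and least total 15, TMM, quasi-likelihood, two-sided, no block, 3 libraries per group). Of 36884 genes 13431 were kept. The standard error is the log2 fold change divided by the square root of F. Alternatives used DESeq2 1.42.0, limma 3.58.1 (voom), other scalings and filters, a replicate block and left-out libraries. A member's symbol that is repeated was taken at its row of highest mean. GENCODE 29 and RefSeq GRCh38.p14, a later build than the authors', gave lengths, overlaps and promoters. Sequences were not matched for POLR1E, NOP58, NAF1, NOLC1, UTP23, RRP12, RRP1B, RRS1 and BOP1. AATF, NOL12 and ZNHIT3 were not analysed here.

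Members, lists and complexes were chosen with earlier results of these data known. Genes named with full values are MAPKAPK5, all RNA polymerase I subunits, NCL, NPM1 and LYAR, in each other class the 3 passing genes with the largest change in each direction and the most abundant gene, UBTF, RRN3 and up to 2 passing genes in each class of other pathway genes. Others are named in lists or were singled out after their values were seen (NIP7, GAR1, NAF1, MPHOSPH10, NMD3, TAF1B, UTP14A, UTP14C, PPAN, P2RY11, PES1, WDR12, UTP15, IMP3 and the overlapping genes).

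Deviations from the group means correlated across genes at 0.284, 0.211 and 0.244 for same-numbered libraries, each over 0.1, so by the rule used replicate numbers count as pairs. Replicates 2 and 3 correlated nearly as much across numbers (0.188 and 0.171) and replicate 1 ran against both (−0.275 to −0.219), so the values show replicate 1 apart from 2 and 3 more than 3 separate pairs. The pairing comes from the data, with no day or batch in the labels. The labels call the replicates biologic. Chi-square over degrees of freedom between replicates 2 and 3 was 6.34 in siCon and 4.17 in siMK5, beyond sampling noise, but separate cultures are not shown and p-values measure only the spread between these libraries. In simulated data (13032 genes kept, 200 genes changed), changes of 2 (log2) were recovered in 63 of 67 genes, of 1 in 20 of 67 and of 0.5 in 0 of 66, with 4 false calls. In the real comparison 46.2% of genes tested passed, a far larger share than was changed in the simulation. The adjustment over all genes depends on that share, so these rates do not carry over to the real comparison. The common biological coefficient of variation was 21.2%, and 4.63% without replicate 1.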

Additional observations from a re-analysis of the deposited data

How the results depend on the processing

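Of the 33 ribosome biogenesis genes that passed, 33 kept their direction and 20 their call in all 15 alternatives. The calls of 13 (POLR1A, NPM1, FBL, IMP4, GAR1, NAF1, UTP18, WDR43, LTV1, RRP1, RRS1, BRIX1 and EBNA1BP2) were lost in at least 1. With single libraries left out, 18 to 36 of the 56 genes fell, 2 to 4 rose and the median was −0.52 to −0.39, the 18 being without siMK5 replicate 2. In the same fits 15.4% to 32.1% of all genes tested fell, the lowest share also being without siMK5 replicate 2. In the other pathway genes 25 to 49 fell and 5 to 14 rose, with 14 without siCon replicate 1. Without replicate 1 in both groups 40 of the 56 fell and 8 rose, and 56 and 17 of the others, beside 37.8% and 37.9% of all genes tested. With no scaling beyond the library total the median of all genes moved to 0.10, that of the 56 to −0.33 (24 fell, 5 rose) and that of the others to −0.15. The share of all genes tested that fell was then 20.2%. With the replicate block 28 fell and 3 rose, with a median of −0.43, while 23.9% of all genes tested fell. NPM1, IMP4, GAR1 and BRIX1 then lost their calls (edgeR adjusted p = 0.0562, 0.0590, 0.0726 and 0.0578). UTP14A and PES1 passed (edgeR adjusted p = 0.0430 and 0.0160), and no other call among the 56 changed. NOLC1 turned to −0.18 without siCon replicate 1 (range over single libraries left out −0.18 to 0.48) and −0.20 without replicate 1 in both groups. DESeq2 gave 33 falls and 3 rises, while 26.6% of all genes tested fell. Why these values moved was not tested. PPAN had the fewest counts of the 56, 43 to 84 per library, and its exons overlap those of P2RY11 on the same strand. Whether depth or this overlap set its counts was not tested.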
